A study of Mus musculus with 4 samples.

Results

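Long noncoding RNA (lncRNA) genes that carried a Flag-Nynrin ChIP-seq peak at a gene end were examined. A gene was taken when both of its ends kept a distance of more than 2000 bp to the ends of protein-coding genes and a peak summit lay within 1000 bp of an end in both replicate peak lists. Of 12408 lncRNA genes on chromosomes 1 to 19, 9753 met the distance condition, and 327 of these had the summits. These 327 are termed the peak-bearing lncRNA genes, and the remaining 9426 are termed the other lncRNA genes. The deposited peaks chose the members, so the presence of a peak, its place within the window and its strength are given as a description.

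Long noncoding RNAs are transcripts without a long open reading frame, most of them made by RNA polymerase II, spliced and polyadenylated like messenger RNAs. Some act as scaffolds in the nucleus, some serve as hosts whose introns are processed into small nucleolar RNAs or microRNAs, and for others transcription through the locus matters more than the RNA made. In blood cells, lncRNAs are known for restricted expression along the lineages, and several lie next to regulators of survival and the cell cycle.

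The study mapped sites bound by Nynrin in the bone marrow of 8-week-old C57BL/6 mice with a 3xFlag-Nynrin-Tg genotype. Flag ChIP was done on lineage-negative cells, which are marrow cells depleted of those with mature-lineage surface markers, and the series holds 2 ChIP and 2 input libraries. Every library came from the transgenic genotype, and no label names the promoter driving the transgene. The peak list of each ChIP library was used and the inputs were not analysed here. The labels do not state whether the replicates are different animals, so the spread between the lists may be technical. Peaks carry no expression values, so neither the identity of the cells nor transcription of any lncRNA was checked.

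The list of replicate 1 held 12627 peaks on chromosomes 1 to 19 and that of replicate 2 held 25539. Without read counts in the lists, sequencing depth is unknown. In the list of replicate 1, 369 of the 9753 lncRNA genes (3.78%) had an end summit, and in that of replicate 2, 831 (8.52%) had one. The share with a summit in both lists was 3.35% (exact 95% interval 3.00 to 3.73%). Without the distance condition it was 8.94% of all 12408, and among the 2655 genes that failed it, 29.5%. By the same window, 33.5% of 20661 protein-coding genes on these chromosomes were called in both lists, 34.2% in replicate 1 and 47.3% in replicate 2. Exact intervals are Clopper-Pearson and reflect only how many genes were counted.

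The starts of 7 well-studied members are shown first, because they differ in the sequence features compared further on, together with 1 eligible gene that had no peak. Each line gives 250 bases before and 50 after the start nearest the gene's 5′ edge, 5′ to 3′ along the gene, from the RefSeq promoter table on GRCm38.p6, the assembly behind mm10. Capitals mark matches, on either strand, to the letters GGGCGG of the GC box, CCGGAAG of ETS factors, TGACGTCA of the cAMP response element, CACGTG of the E-box, CCAAT of the CCAAT box, AGATAA of GATA factors, TATAAA of the TATA box and TGTGGT of RUNX factors, or to the palindromic NRF1 motif of 10 letters. Adjacent matches can overlap, as in the paired GGGCGG matches of Snhg5, Dleu2 and Lockd. Snhg5 carries small nucleolar RNAs in its introns, and its start is at chr9:88522848-88523147, minus strand.
Snhg5: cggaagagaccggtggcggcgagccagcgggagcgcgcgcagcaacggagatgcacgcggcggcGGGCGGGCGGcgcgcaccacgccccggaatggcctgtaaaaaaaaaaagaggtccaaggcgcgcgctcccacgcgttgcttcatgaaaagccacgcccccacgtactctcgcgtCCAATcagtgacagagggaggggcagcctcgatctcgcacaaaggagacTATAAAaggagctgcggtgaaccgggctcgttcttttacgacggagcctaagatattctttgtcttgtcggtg
Oip5os1, also named Cyrano, is known for directing the decay of miR-7, and its start is at chr2:119594046-119594345, plus strand.
Oip5os1: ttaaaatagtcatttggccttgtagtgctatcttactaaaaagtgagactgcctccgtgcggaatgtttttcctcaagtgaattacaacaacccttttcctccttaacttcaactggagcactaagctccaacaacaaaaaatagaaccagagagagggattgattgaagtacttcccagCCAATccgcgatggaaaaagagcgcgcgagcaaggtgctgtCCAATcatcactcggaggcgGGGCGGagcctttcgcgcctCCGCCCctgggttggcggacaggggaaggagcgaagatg
Snhg15 is a small nucleolar RNA host at chr11:6528711-6529010, minus strand.
Snhg15: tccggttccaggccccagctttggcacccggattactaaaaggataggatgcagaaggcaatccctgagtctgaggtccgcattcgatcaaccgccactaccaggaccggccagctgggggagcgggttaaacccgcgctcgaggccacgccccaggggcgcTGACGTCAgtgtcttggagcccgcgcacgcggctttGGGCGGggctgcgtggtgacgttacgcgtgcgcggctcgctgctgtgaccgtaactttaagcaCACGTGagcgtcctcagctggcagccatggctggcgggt
Dleu2 is the host transcript of miR-15a and miR-16-1, and its start is at chr14:61682324-61682623, minus strand.
Dleu2: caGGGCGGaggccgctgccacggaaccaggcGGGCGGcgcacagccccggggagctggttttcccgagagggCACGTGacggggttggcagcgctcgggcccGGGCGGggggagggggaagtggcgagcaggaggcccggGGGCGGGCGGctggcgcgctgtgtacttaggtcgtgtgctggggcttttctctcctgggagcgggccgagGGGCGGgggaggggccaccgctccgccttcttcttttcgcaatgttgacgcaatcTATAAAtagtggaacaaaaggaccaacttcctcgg
Lockd lies downstream of the cell cycle inhibitor gene Cdkn1b, with its start at chr6:134928842-134929141, plus strand.
Lockd: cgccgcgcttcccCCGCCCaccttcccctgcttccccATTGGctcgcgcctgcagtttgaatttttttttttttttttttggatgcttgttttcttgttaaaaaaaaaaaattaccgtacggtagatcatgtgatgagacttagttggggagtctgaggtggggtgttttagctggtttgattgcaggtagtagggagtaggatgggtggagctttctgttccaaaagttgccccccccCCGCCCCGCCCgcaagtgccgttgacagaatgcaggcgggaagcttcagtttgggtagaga
Mirt1 was first described in the infarcted heart, and its start is at chr19:53464747-53465046, minus strand.
Mirt1: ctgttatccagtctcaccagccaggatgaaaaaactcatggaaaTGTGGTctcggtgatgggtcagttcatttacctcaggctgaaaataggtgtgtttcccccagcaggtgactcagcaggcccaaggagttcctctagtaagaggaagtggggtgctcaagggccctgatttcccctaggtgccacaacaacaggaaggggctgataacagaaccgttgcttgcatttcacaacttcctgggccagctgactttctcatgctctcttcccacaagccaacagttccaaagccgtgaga
Morrbid is known in mouse myeloid cells as a regulator of its neighbour Bcl2l11, which encodes the death protein Bim, and its start is at chr2:128429302-128429601, minus strand.
Morrbid: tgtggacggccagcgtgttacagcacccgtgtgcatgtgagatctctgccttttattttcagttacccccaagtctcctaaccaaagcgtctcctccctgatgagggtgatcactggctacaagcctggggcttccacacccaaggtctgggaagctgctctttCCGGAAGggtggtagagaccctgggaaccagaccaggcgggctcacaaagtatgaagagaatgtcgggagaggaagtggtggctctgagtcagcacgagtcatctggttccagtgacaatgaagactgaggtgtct
Meg3, the maternally expressed lncRNA of an imprinted cluster, is the gene without a peak, with its first start at chr12:109540746-109541045, plus strand.
Meg3: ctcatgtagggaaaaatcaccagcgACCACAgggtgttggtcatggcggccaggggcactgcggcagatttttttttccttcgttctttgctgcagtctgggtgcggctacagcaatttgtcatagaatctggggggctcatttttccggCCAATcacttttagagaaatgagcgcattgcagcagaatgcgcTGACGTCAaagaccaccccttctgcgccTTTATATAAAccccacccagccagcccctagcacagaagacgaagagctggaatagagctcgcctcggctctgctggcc
Each of the 7 member starts lay inside the deposited peak in both lists. This was less frequent among all 263 peak-bearing genes with a listed start. There the strongest peak covered a listed start for 136 (51.7%) in replicate 1 and 176 (66.9%) in replicate 2. The summit was 7 bp from the start of Snhg15 in replicate 1 and 180 bp in replicate 2, and 25 and 8 bp from that of Oip5os1. The nearest summit to Meg3 was 646793 bp away in replicate 1 and 646825 bp away in replicate 2. The observed over expected ratio of CpG dinucleotides was 1.26 for Snhg5, 0.927 for Snhg15, 0.856 for Dleu2, 0.801 for Oip5os1 and 0.681 for Lockd. It was 0.360 for Morrbid, 0.152 for Mirt1 and 0.602 for the first Meg3 start, so these members spanned both sides of the value of that start. A second listed Meg3 start, at chr12:109545148-109545447, had a ratio of 0.0588, below those of all 7 members.

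The 2 microRNAs of Dleu2 share the seed AGCAGCA, bases 2 to 8 of each 5p strand, in capitals below. They are known to hold down cyclins and Bcl2, and their mature strands map within Dleu2 at chr14:61632075-61632096 and chr14:61631936-61631957, minus strand.
mmu-miR-15a-5p: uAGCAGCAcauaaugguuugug
mmu-miR-16-5p: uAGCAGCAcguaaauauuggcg
The enrichment of Dleu2 (chr14:61602836-61682373) was 3.54-fold in replicate 1 and 8.77-fold in replicate 2, in peaks of 621 and 3186 bp. Fold enrichment is the deposited linear ratio of ChIP signal over the peak caller's background at the summit.

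The strongest end peak of each of the 327 genes had a median fold enrichment of 4.10 (quartiles 3.47 to 4.98, range 2.17 to 9.57) in replicate 1. In replicate 2 the median was 5.85 (quartiles 4.78 to 7.72, range 2.48 to 14.6). The −log10 q had medians of 5.25 and 10.4 in replicates 1 and 2, and the median peak width was 541 and 993 bp. Values repeated among members, with 229 distinct fold enrichments in replicate 1 and 128 in replicate 2, so neighbouring ranks were often ties. Genes were ordered by the lower of their percentile ranks among all peaks of the lists.

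**Figure D1:**
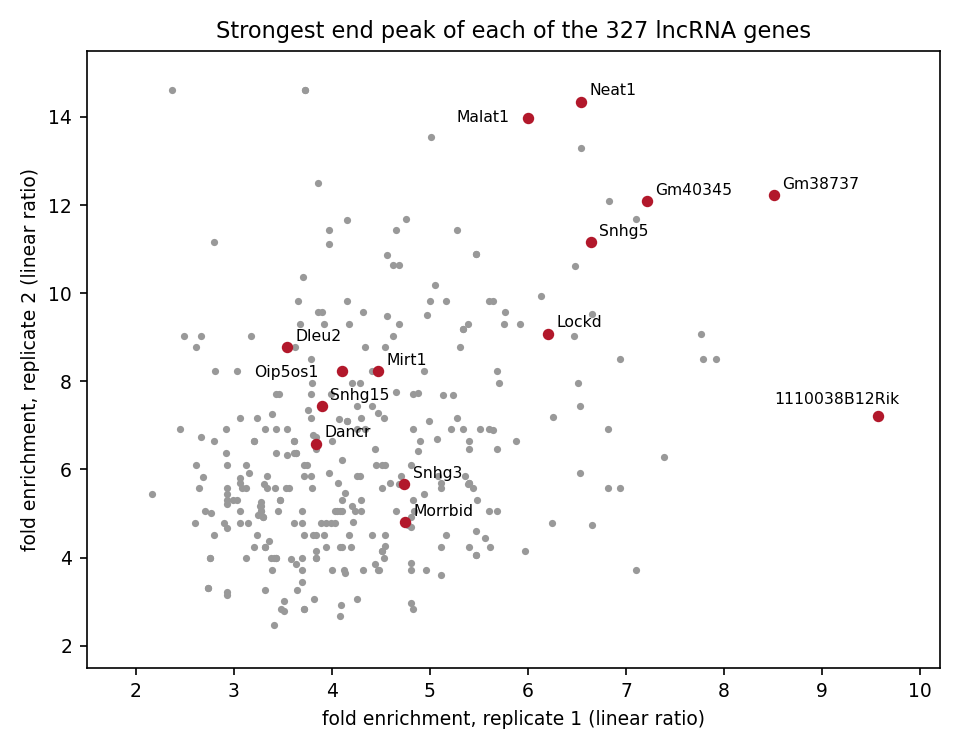
Fold enrichment (linear ratio) of the strongest end peak of each of the 327 peak-bearing lncRNA genes in replicate 1 (horizontal) and replicate 2 (vertical), 1 point per gene, with 14 genes in red and named. Neat1, Malat1, Gm38737, Gm40345 and Snhg5 were high in both lists, whereas 1110038B12Rik had the highest value in replicate 1 and 7.21 in replicate 2.

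At the head of this order stood Gm38737 (chr5:143732455-143735431), an uncharacterised gene inside Usp42, a deubiquitinase gene. Its fold enrichment was 8.51 in replicate 1 and 12.2 in replicate 2. Gm40345 (chr5:135685941-135689051), inside the cytochrome P450 reductase gene Por, had 7.21 and 12.1, and 4930404I05Rik, which overlaps Paxbp1, had 7.10 and 11.7. Usp42 and Por had no end summit of their own in either list, and the lncRNA ends lay 22130 and 15901 bp inside them. 2700012I20Rik, inside the corepressor gene Sin3a, had 6.83 and 12.1, and 4833438C02Rik, inside the NF-kappa-B subunit gene Nfkb2, had 6.55 and 13.3. Neither of these host genes was called at its outer ends, and starts inside the host genes were not examined.

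Among the first 15 were also 4 named lncRNAs, Snhg5, Neat1, Lockd and Malat1. Neat1, the scaffold of nuclear paraspeckles (chr19:5824708-5845480), was enriched 6.55-fold in replicate 1 and 14.3-fold in replicate 2. Malat1, an abundant RNA of nuclear speckles (chr19:5795690-5802672), had 6.00 and 14.0. These neighbours carried the 2 widest peaks that overlapped between replicates among the members, at 6622 and 9707 bp for Neat1 and 3675 and 6631 bp for Malat1. The strongest Malat1 summits lay 765 and 820 bp upstream of its listed start, and a weaker summit lay at the other end in both lists. Next in width were 2700012I20Rik, with 2161 and 1941 bp, B330016D10Rik, near Spen, with 2051 and 2643 bp, and A630026N12Rik, inside Gabpb1, with 1931 and 1976 bp.

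The remaining genes of the first 15 were mostly uncharacterised. Gm11767, overlapping the Baiap2 gene, had 6.48 and 10.6, and C920006O11Rik, 3800 bp from the kinase gene Cilk1, had 6.65 and 9.54. The end of Rn7sk, which encodes the 7SK RNA that restrains elongation by RNA polymerase II, lay within 1000 bp of the replicate 1 summit of C920006O11Rik. B930059L03Rik, 8299 bp from the phosphatase subunit gene Ppp2r5c, had 6.13 and 9.93. Gm39918, near Shf, had 7.77 and 9.06, Gm31068, 34297 bp from the transcription factor gene Foxk1, had 6.47 and 9.03, and 1700012D14Rik, 34643 bp from the translation factor gene Eif4g2, had 5.92 and 9.30.

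A list of 70 known lncRNAs was compiled with earlier results of these data known. Of these, 38 were eligible, and 13 of the 38 were peak-bearing, beside 327 of all 9753 eligible lncRNA genes. Small nucleolar RNA hosts, whose spliced transcripts are mostly by-products, had the highest share of any type of gene name. Of 8 eligible genes of that class, 6 (75%, exact interval 34.9 to 96.8%) were peak-bearing, against 3.35% of all eligible lncRNA genes. Snhg5 was enriched 6.64-fold in replicate 1 and 11.2-fold in replicate 2, Snhg3 had 4.74 and 5.67, Snhg15 had 3.90 and 7.44, and Snhg17 had 3.79 and 7.71. Dancr, the host of Snora26, had 3.84 and 6.59, and Snhg4 had 2.70 and 5.05. Of the other hosts, Snhg20 had a summit in replicate 2 alone, at 6.11, and Snhg11 had none in either list. The highest fold enrichment of any member in replicate 1 was also at a gene with a small nucleolar RNA inside its bounds, 1110038B12Rik with Snord52, at 9.57, against 7.21 for the same gene in replicate 2.

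Oip5os1 was enriched 4.10-fold in replicate 1 and 8.24-fold in replicate 2, and its nearest coding gene Chp1 had 5.20 and 14.3. Mirt1 had 4.47 and 8.24, with Smndc1, a splicing factor gene 50511 bp away, at 7.18 and 14.6. Morrbid had 4.74 and 4.80, and Bcl2l11, 136116 bp away, had 5.96 and 9.83. Lockd had 6.20 and 9.08, and Cdkn1b, 3567 bp away, had 6.31 and 9.57. In these 4 pairs the coding gene had the higher value in both lists. Of the 13 known members, 10 had a called nearest coding gene, and Snhg15, Snhg17 and Dleu2 did not. Over all 327 peak-bearing genes the share with one was 52.0%, and over the other lncRNA genes it was 28.1%.

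Many known lncRNAs had no such peak. Summits in replicate 2 alone were found for 4 genes, the imprinted antisense RNA gene Kcnq1ot1 (fold enrichment 5.68), the imprinted gene Peg13 (5.85), Snhg20 and the cardiac lncRNA gene Bvht (3.72). A further 21 had no end summit within 1000 bp in either list. They included the imprinted genes Meg3, Mirg, H19 and Airn, the Hox cluster genes Hotair and Halr1, and Norad, Pvt1 and Trp53cor1. Lncpint, Mir17hg, Miat, Mir99ahg, Trp53cor1 and Snhg11 had a summit within a few kilobases in at least 1 list. The nearest summit was 1965 and 2068 bp from an end of Lncpint and 2095 and 2256 bp from Mir17hg, host of the miR-17 to miR-92 cluster. For Miat it was 47576 bp away in replicate 1 and 1510 bp in replicate 2, and for Mir99ahg 154245 and 1915 bp. For Trp53cor1 it was 15494 bp in replicate 1 and 3080 bp in replicate 2, and for Snhg11 14273 and 4197 bp. The rest of this group were Mir155hg, Mir124-2hg, Dnm3os, Lincred1, Platr4, Rmst and Sox2ot. For all 21 the statement concerns the annotated ends in this window at the depth of these lists.

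The type of gene name separated the eligible genes as well. Genes named by a Gm number were peak-bearing in 215 of 8016 cases (2.68%), RIKEN clone genes in 74 of 1225 (6.04%), antisense or opposite-strand genes in 7 of 103 (6.80%) and genes with other names in 15 of 163 (9.20%). Genes with a LOC number were peak-bearing in 9 of 224 cases (4.02%) and microRNA hosts in 1 of 14 (7.14%), that 1 being Dleu2. The antisense genes with the highest ranks were Hk1os, Zfp652os and Rab11fip4os1, at 5.61, 5.17 and 5.0 in replicate 1 and 9.83 each in replicate 2. Hk1os begins inside the hexokinase 1 gene Hk1, 16309 bp from its nearest end, and Hk1 itself had no end summit in either list. Ptgs2os2, 50809 bp from the cyclooxygenase 2 gene Ptgs2, followed with 4.13 and 5.48. Of the LOC genes, LOC108169175, inside Atf7ip, had 5.40 and 6.47, and LOC105245613, 140167 bp from the PI3-kinase subunit gene Pik3r1, had 5.40 and 5.70. LOC115486505 had 4.71 and 5.85, and LOC115490435 had 4.63 and 9.03. For LOC115490435 these peaks did not overlap, with summits 2251 bp apart at opposite ends. A weaker replicate 2 peak, at 5.31, lay at the end used in replicate 1. Vaultrc5, a vault RNA gene that the table classes as lncRNA, had 5.0 and 7.09. A curated RefSeq transcript was listed for 148 of the 327 peak-bearing genes (45.3%) and for 2040 of the 9426 other lncRNA genes (21.6%). How well a gene is annotated therefore moved with membership, and its part in the counts by name was not tested.

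Summits lay mainly at the 5′ end. The gene table gives no strand, so strand and starts came from the promoter table, which held 263 of the 327 peak-bearing genes (80.4%) and 7012 of the 9426 other lncRNA genes (74.4%). A summit lay within 1000 bp of a listed start for 211 of the 263 (80.2%) in replicate 1 and 215 (81.7%) in replicate 2. Of 218 members with a known strand that were longer than 2000 bp, so that the ends could be separated, 161 (73.9%) had summits at the 5′ end alone in both lists. The 3′ end alone carried the summits of 29 (13.3%), and both ends carried them in both lists in 6 (2.75%). Among 5537 called coding genes of that length the 5′ end alone was used in 89.7%, the 3′ end alone in 1.66% and both ends in 2.64%. The 3′ share was thus higher for the lncRNA genes within the same lists.

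**Figure D2:**
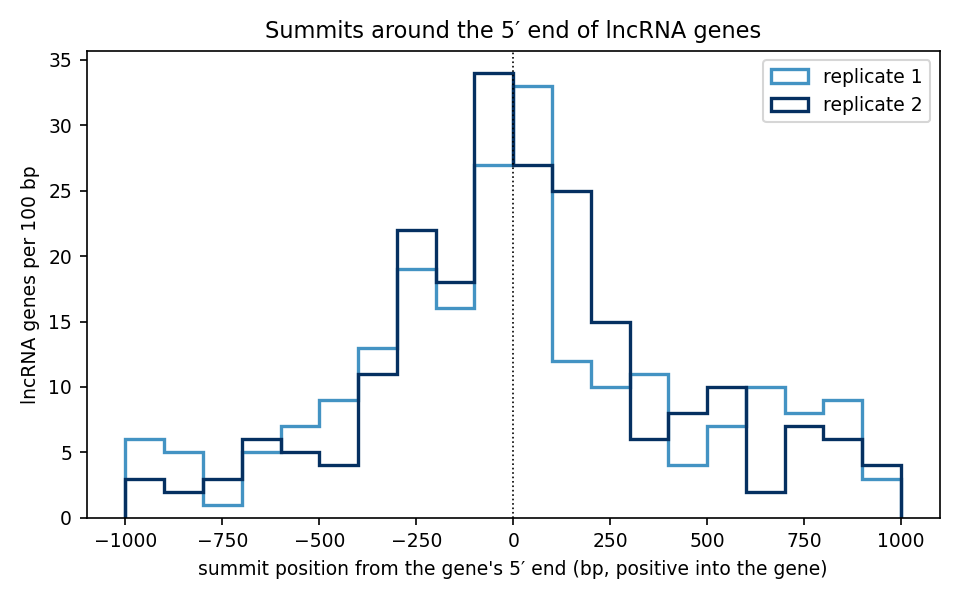
Number of peak-bearing lncRNA genes per 100 bp by the position of the strongest summit from the gene's 5′ end (bp, positive into the gene), for replicate 1 (light blue) and replicate 2 (dark blue), for genes with a known strand and a strongest summit within 1000 bp of that end. Both lists peak near 0, where 161 of 218 longer genes had summits at the 5′ end alone in both lists.

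With genes of unknown strand added, 7 members had summits at both ends in both lists. They were Gm40345, Malat1, Gm51701, 2310001H17Rik, Gm33273, Gm42060 and Gm34102. Gm51701 lay 33420 bp from the chemokine receptor gene Ccr1, which was called, and 2310001H17Rik lay 28842 bp from the early activation gene Cd69, which had an end summit in replicate 2 alone.

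The replicates placed most peaks at the same position. The strongest peaks of the lists overlapped by at least 1 bp for 303 of the 327 genes (92.7%), and their summits were a median of 122 bp apart (quartiles 57 to 288). The median distance from the nearest end to the closest summit was 268 bp in replicate 1 and 243 bp in replicate 2. Peaks were shared between members in 13 pairs, so the 327 genes form 314 independent positions. At the edge of the window, Gm30684, Gm32534, Gm30298, Gm34276 and 4833438C02Rik were just inside at 1000, 987, 985, 983 and 979 bp. A930038B10Rik, Gm35215, Zeb2os, Gm34542 and Gm46978 were just outside at 1005, 1038, 1042, 1054 and 1061 bp. The limit thus cut through a continuous range of distances.

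Peaks at lncRNA ends were compared with peaks elsewhere in the same list. In replicate 1 the median fold enrichment was 4.10 for the 342 peaks at ends of the peak-bearing lncRNA genes, 4.19 for the 6338 at coding gene ends, 3.76 for the 41 at ends of other eligible lncRNA genes and 3.98 for the remaining 5906. In replicate 2 it was 5.62 for 358 peaks at the lncRNA ends, 6.63 for 9230 at coding gene ends, 3.99 for 526 at ends of other eligible lncRNA genes and 4.24 for the remaining 15425. The lncRNA peaks were also narrower than coding peaks in both lists, with median widths of 519.5 against 640 bp in replicate 1 and 955.5 against 1021 bp in replicate 2. Membership needed a peak in both lists, which was not asked of the other peaks, so these medians are a description.

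The nearest protein-coding gene was not used by the rule and was compared between peak-bearing and other lncRNA genes. Since both lncRNA ends lay more than 2000 bp from any coding gene end, no summit could serve an lncRNA end and a coding gene end at once. Ends are the outer bounds of a gene, so this does not cover starts inside a coding gene. Of the 327 peak-bearing genes, 77 lay inside a coding gene and 34 overlapped one in part. For these, a summit at such a start was not told apart from one at the lncRNA end. The nearest coding gene was itself called in both lists for 170 of the 327 peak-bearing genes (52.0%, exact interval 46.4 to 57.5%) and for 2653 of the 9426 other lncRNA genes (28.1%, 27.2 to 29.1%). In replicate 1 the shares were 52.9% for peak-bearing and 28.9% for other lncRNA genes, and in replicate 2 they were 67.3% for peak-bearing and 44.1% for other lncRNA genes. The gap was 24.0 percentage points in replicate 1 and 23.2 in replicate 2. These gaps rest on the same 327 genes and the same neighbours, so they are not independent of each other. With each coding gene counted once, the shares were 160 of 305 (52.5%) for peak-bearing and 1513 of 5032 (30.1%) for other lncRNA genes. All protein-coding genes were called at 33.5%, a value between those of the 2 kinds of lncRNA gene.

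**Figure D3:**
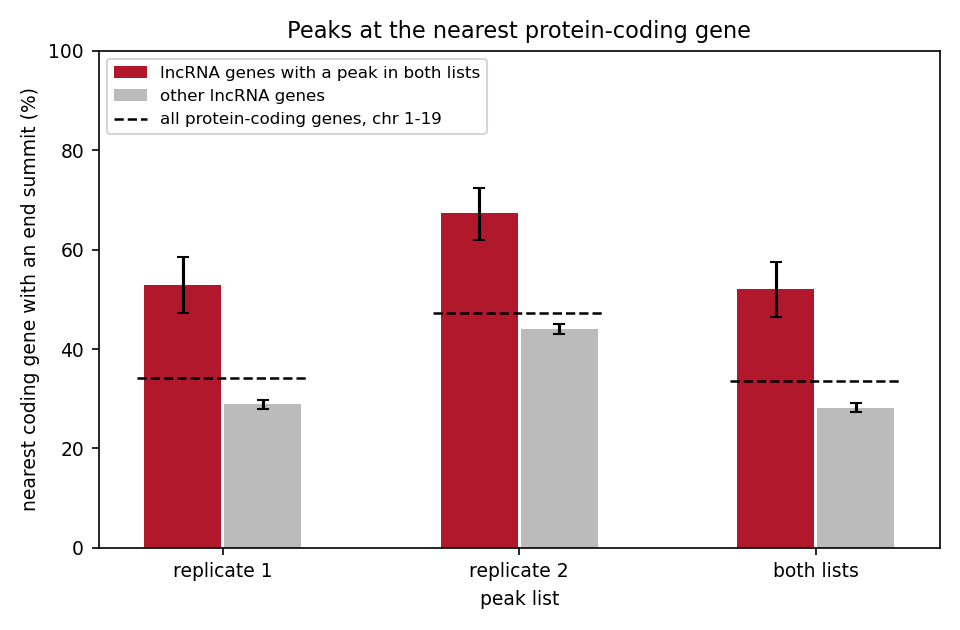
Percentage of lncRNA genes whose nearest protein-coding gene had an end summit in replicate 1, in replicate 2 or in both lists, for peak-bearing lncRNA genes (red) and other lncRNA genes (grey), with exact 95% intervals as bars. The dashed lines give the share of all protein-coding genes, and the red bars stand above them in each list while the grey bars stand below.

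Peak-bearing lncRNA genes were closer to coding genes and shorter than the others. Their median distance to the nearest coding gene end was 13069 bp (quartiles 5362 to 31879.5, range 2002 to 351167), against 34023.5 bp (11089 to 102493) for the other lncRNA genes. Median length was 5840 bp (quartiles 2906.5 to 13998.5) for peak-bearing genes, against 8932.5 bp (3951.25 to 20130.75) for the others. Of the genes 2000 to 5000 bp from a coding end, 7.04% (78 of 1108) were peak-bearing. The share was 4.77% (67 of 1406) at 10000 to 20000 bp and 0.984% (24 of 2439) beyond 100000 bp. Each list showed the same order on its own, with 7.67% and 16.9% in the closest class and 1.19% and 2.38% in the farthest, in replicates 1 and 2.

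**Figure D4:**
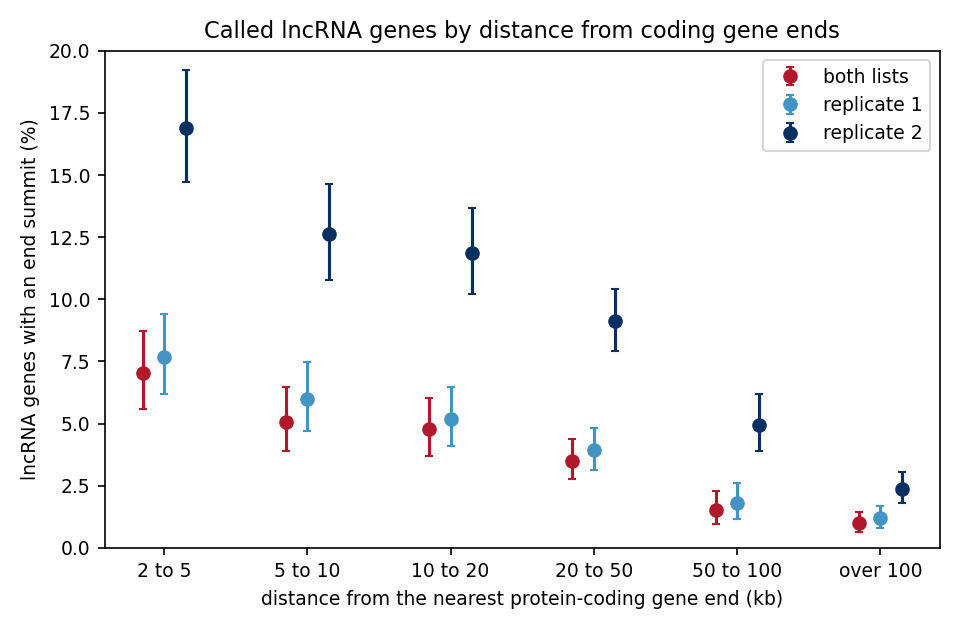
Percentage of eligible lncRNA genes with an end summit in both lists (red), in replicate 1 (light blue) and in replicate 2 (dark blue), by distance from the nearest protein-coding gene end (kb), with exact 95% intervals. Each series declines with distance, and for both lists the share is 7.04% at 2000 to 5000 bp and 0.984% beyond 100000 bp.

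Distance and a peak at the neighbour were then combined. Within each of the 6 distance classes, lncRNA genes whose nearest coding gene was called were peak-bearing more often than those whose neighbour was not. At 2000 to 5000 bp, 10.5% (33 of 313) were peak-bearing with a called neighbour and 5.66% (45 of 795) without. At 20000 to 50000 bp it was 6.92% (46 of 665) with a called neighbour and 1.97% (29 of 1474) without, and beyond 100000 bp it was 2.09% (12 of 575) with and 0.644% (12 of 1864) without. Partial overlap with a coding gene was also more frequent among peak-bearing genes. Of the peak-bearing genes 77 (23.5%) lay inside a coding gene, 34 (10.4%) overlapped one in part and 216 (66.1%) lay between genes, against 24.7%, 4.82% and 70.5% of the other lncRNA genes. The called neighbour was more frequent for peak-bearing genes lying between genes (129 of 216, 59.7%, against 30.2% of the others there) and for those inside a gene (29 of 77, 37.7%, against 24.6% of the others there).

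In the 170 pairs with a called neighbour, the lncRNA peak was weaker more often in replicate 2 than in replicate 1. It was weaker in 92 pairs (54.1%) in replicate 1, with medians of 4.18 for the lncRNA genes and 4.45 for the coding genes. In replicate 2 it was weaker in 126 pairs (74.1%), with medians of 5.68 for the lncRNA genes and 7.97 for the coding genes. It was weaker in both lists in 75 pairs (44.1%), and the lncRNA peak was the stronger in both in 26. The paired summits were a median of 37138.5 bp apart in replicate 1, and the smallest separation was 2790 bp.

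Among the farthest members were 4930526H09Rik and Gm38397, 351167 and 346733 bp from Actbl2, which shared 1 peak of 2.74-fold in replicate 1 and 3.32-fold in replicate 2. Gm5086 lay 306960 bp from Enc1 and Gm32098 lay 278702 bp from Zfp703. Closest to a coding gene end were A830035O19Rik, inside Sidt2, at 2002 bp and Gm10244, inside Mkrn1, at 2005 bp. They were followed by 1500015A07Rik, which lay outside Afap1l1, at 2008 bp. Gm31728, overlapping the presenilin gene Psen2, was at 2083 bp, and 2310068J16Rik, inside Larp4, was at 2102 bp. Of the 305 nearest coding genes, 21 were nearest to more than 1 member. Dusp6, which encodes a phosphatase of the ERK pathway and was picked here after its values were seen, was nearest to 3. They were Gm34777 at 24218 bp, Gm35035 at 182730 bp and Gm34983 at 192266 bp. Gm35035 and Gm34983 shared the same peak in each list, and Dusp6 itself had an end summit in replicate 2 alone. Hk2, the gene of hexokinase 2, was nearest to Gm32534 and Gm32480, whose fold enrichments were 3.32 and 3.64 in replicate 1 and 3.28 for the single shared peak in replicate 2.

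Genes of small RNAs lay close to some of the peaks. A transfer RNA gene end lay within 1000 bp of an end of 17 of the 327 peak-bearing genes (5.20%, exact interval 3.06 to 8.19%) and of 11 of the 9426 other lncRNA genes (0.117%, 0.0583 to 0.209%). Counted the other way, 17 of the 28 eligible lncRNA genes with a transfer RNA gene at an end were peak-bearing (60.7%, 40.6 to 78.5%). Transfer RNA genes are transcribed by RNA polymerase III, and whether a given summit belongs to the lncRNA or to the transfer RNA gene cannot be told apart by position. The strongest peaks of these 17 had a median fold enrichment of 5.34 (range 3.97 to 7.78) in replicate 1 and 7.11 (range 5.05 to 11.4) in replicate 2. For 14 of the 17 both values were above the medians of all 327. Examples are Gm46404, with 7.78 and 8.50, Gm39918, with 7.77 and 9.06, and B230208H11Rik, with 6.94 and 8.50, all chosen from the 17 after their values were seen.

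Small nucleolar RNA gene ends lay within 1000 bp of 7 peak-bearing genes (2.14%) and 24 other lncRNA genes (0.255%), and small nuclear RNA gene ends near 4 peak-bearing (1.22%) and 19 other (0.202%) genes. MicroRNA gene ends were near 3 peak-bearing (0.917%) and 32 other (0.339%) genes. Pseudogene ends showed little difference, near 6 peak-bearing (1.83%) and 158 other (1.68%) genes, and another lncRNA gene end was near 35 peak-bearing (10.7%) and 773 other (8.20%) genes. For microRNA ends the exact intervals of peak-bearing and other genes were 0.190 to 2.66% and 0.232 to 0.479%. For small nucleolar RNA ends they were 0.865 to 4.36% and 0.163 to 0.379%. For small nuclear RNA ends, with only 4 peak-bearing genes, they were 0.334 to 3.10% and 0.121 to 0.315%. These intervals reflect only how many genes were counted, and no difference was tested.

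Sequence at the start was compared last, for genes with a listed start. Because fewer than 80% of the other lncRNA genes have one, a check over all of them is void, and the values cover only listed starts. The CpG ratio over the 300 bases had a median of 0.433 (quartiles 0.224 to 0.768) in the 263 peak-bearing genes and 0.214 (0.116 to 0.343) in the 7012 other lncRNA genes. A ratio of at least 0.6 was found at 102 starts (38.8%) of peak-bearing genes and at 366 (5.22%) of the others. With genes called from the replicate 2 list alone, 24.7% of their 645 listed starts were at or above 0.6. From the replicate 1 list alone it was 35.4% of 297. Median GC content was 52.7% in peak-bearing genes and 47.0% in the others. Among called coding genes the ratio had a median of 0.829, and 83.7% of their starts were at or above 0.6. The peak-bearing lncRNA genes therefore lay between the other lncRNA genes and the called coding genes.

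The ratio also varied among members with the end that carried the summit. The 217 members with a 5′ summit in both lists had a median ratio of 0.526, and 45.6% were at or above 0.6. The 33 members with a listed start and no summit at the 5′ end in either list had a median of 0.226, near that of the other lncRNA genes, and 0 of 33 reached 0.6, where the 3 counts that a count of 0 allows would be 9.09%.

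Calls followed the CpG ratio in each list. Of lncRNA genes with a ratio under 0.2, 58 of 3302 (1.76%) were peak-bearing, and in the class of 0.8 and above 60 of 158 (38.0%) were. In the lowest class the shares were 2.18% in replicate 1 and 4.94% in replicate 2, and in the highest 39.2% and 53.8%. Coding genes of the same classes, which were not held to the distance condition, were called more often, at 3.62% and 66.0%. Between those limits the shares were 13.5% for lncRNA genes and 47.4% for coding genes at a ratio of 0.6 to 0.8.

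**Figure D5:**
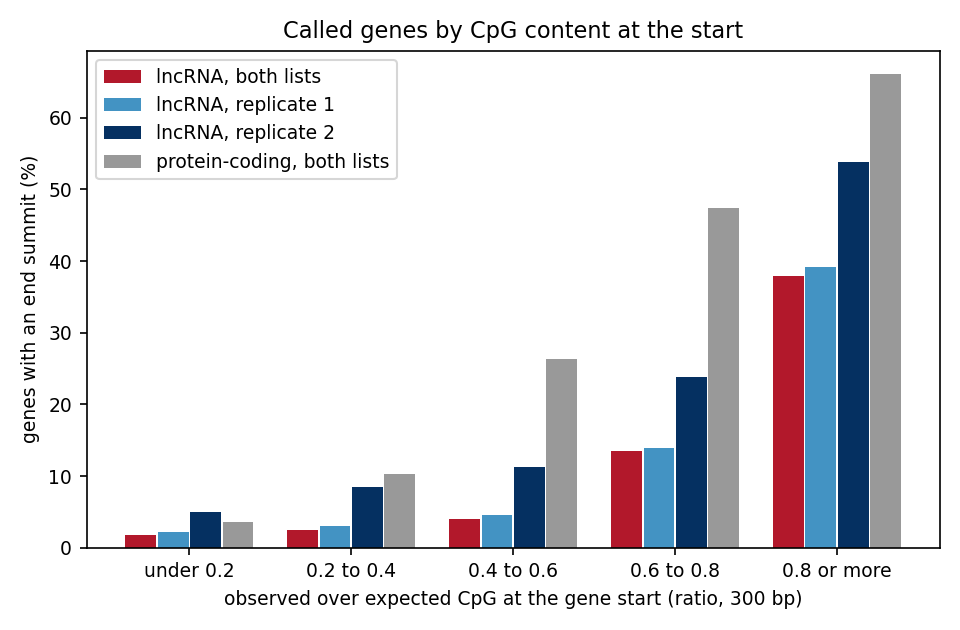
Percentage of lncRNA genes with an end summit in both lists (red), replicate 1 (light blue) and replicate 2 (dark blue), and of protein-coding genes called in both lists (grey), by observed over expected CpG in the 300 bases at the start. All 4 series climb with the ratio, and for both lists the lncRNA share is 1.76% in the lowest class and 38.0% in the highest.

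The link with the neighbouring coding gene was present on both sides of the CpG limit. At a ratio of 0.6 or more, the nearest coding gene was called for 45 of 102 peak-bearing genes (44.1%) and 90 of 366 other lncRNA genes (24.6%). Below 0.6 it was called for 89 of 161 peak-bearing genes (55.3%) and 1901 of 6646 other lncRNA genes (28.6%).

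Short motifs differed in the same starts. GGGCGG, the core letters of the GC box, occurred on either strand in 97 of the 263 peak-bearing starts (36.9%), in 8.90% of the others, in 16.9% of all listed lncRNA starts and in 47.3% of all coding starts. CCGGAAG, a core of ETS factor sites, occurred in 26 peak-bearing starts (9.89%), in 2.75% of the others, and in 4.05% of all lncRNA and 12.3% of all coding starts. TATAAA, the TATA box letters, occurred in 11.0% of peak-bearing starts and 17.6% of the others, with 15.4% and 13.5% over all lncRNA and all coding starts. AGATAA, the letters of a GATA factor site, occurred in 7.22% of peak-bearing starts and 15.8% of the others, with 14.0% and 9.85% over all lncRNA and all coding starts. CG-containing letters were thus more frequent and these AT-rich letters less frequent in peak-bearing starts. CpG and GC contents of the sets differed too, and their part in the motif shares was not tested.

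The remaining letters differed less or were rare. CACGTG, the E-box read by Myc and Usf factors, occurred in 8.75% of peak-bearing starts and 5.36% of the others, with 5.91% of all lncRNA and 7.97% of all coding starts. TGACGTCA, a cAMP response element, occurred in 1.90% of peak-bearing starts and 0.713% of the others, with 1.00% of all lncRNA and 2.40% of all coding starts. The NRF1 motif was found in 0.760% of peak-bearing starts and 0.0998% of the others, with 0.323% of all lncRNA and 1.37% of all coding starts. CCAAT occurred in 32.7% of peak-bearing starts and 36.5% of the others, with 35.8% of all lncRNA and 39.1% of all coding starts. TGTGGT, the letters of a RUNX site, occurred in 17.1% of peak-bearing starts and 21.8% of the others, with 20.3% of all lncRNA and 14.8% of all coding starts. In the starts printed above, GGGCGG matched 6 times in Dleu2, 3 times in Lockd and 2 times each in Snhg5 and Oip5os1, while Morrbid held a single CCGGAAG and Mirt1 a single TGTGGT. A match describes the letters in this window and does not show that a factor binds there.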

How the data were processed

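Cells were crosslinked with formaldehyde and libraries made with a Vazyme TruePrep kit, per the labels' protocols. The submitters' processing notes name MACS2 and ChIPseeker, with Bowtie2, Trimmomatic, cutadapt and FastQC, and the build mm10. They give no version or cutoff, and the role of the inputs is not given in the sources used here. For each ChIP library the authors deposited 1 list of peaks. The fold enrichment the authors deposited, a linear ratio, was used to describe and rank peaks within a list. Significance is deposited as −log10 p and −log10 q per peak, and the deposited score column was not used. Peaks hold no counts, so depth is unknown.

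Gene bounds, biotypes and starts came from RefSeq tables on GRCm38.p6. Summits were counted from 1, and without this shift 326 genes would be members. A gene was called when a summit lay within 1000 bp of either end in both lists. The nearest coding gene was the one with the smallest gap to the lncRNA gene, 0 where they overlap. Intervals of shares are exact Clopper-Pearson 95% intervals, and no test was run, because the 2 lists are the only replicates. The members and lists were chosen with earlier results of these data known. Named genes were the 15 with the highest score, up to 4 per type of name, the eligible genes of the known list, the 5 farthest and 5 closest to a coding end, the 5 widest shared peaks, genes with summits at both ends, and the 5 on each side of the window's limit. A gene that this rule selects is not reported here. Other names are given with their host or neighbour, or as chosen after their values were seen. The matching was tested on simulated data, where 200 planted genes of 9753 were all recovered with 8 other calls. Calculations used Python 3.11.15, numpy 2.4.6, pandas 2.3.3, scipy 1.17.1 and matplotlib 3.10.9.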

Additional observations from a re-analysis of the deposited data

Results flagged for a closer look

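Chromosomes X and Y were outside the comparisons above. By the same rule, 4 of 256 eligible lncRNA genes there (1.56%) had an end summit in both lists, against 3.35% on chromosomes 1 to 19. They are given because these chromosomes entered no comparison, and no difference was tested. They were 5730405O15Rik, 9530027J09Rik, F630028O10Rik and G530011O06Rik.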

How the results depend on the processing

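Values recomputed under other settings numbered 41. Of these, only the gap in called neighbours could change sign, and it stayed positive under each setting. A count was taken as moved when it changed by more than 1.5 times, and any other value when it changed by at least the SD between the values of the single lists, which is a narrow limit for the gap and the distance, and by these limits 18 moved. The 327 peak-bearing genes became 215 with a 500 bp window, 188 when both ends had to be over 10000 bp from a coding end, 162 with peaks of −log10 q of at least 5, and 68 with a fold enrichment of at least 5. With replicate 2 or replicate 1 left out they were 369 to 831. The gap of 23.8 percentage points in called neighbours became 25.3 with the 500 bp window, 30.2 beyond 10000 bp, 27.1 without lncRNA genes inside a coding gene, 16.9 with −log10 q of at least 5, and 21.3 to 22.7 from a single list. With −log10 q of at least 5 the median distance to a coding end became 11570.5 bp, the median fold enrichment in replicate 2 became 7.20, the median CpG ratio 0.581 and the share of starts at 0.6 or more 48.5%. From a single list these were 13134 to 14287 bp for the distance, 0.344 to 0.397 for the CpG ratio and 24.7 to 35.4% for the share. Leaving out lncRNA genes with a transfer RNA gene at an end, a choice made after seeing the data, left 310 genes. No paired analysis was possible because only ChIP libraries were analysed and they form 1 group. With no counts, a gene without a peak may lie below what these lists detect.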

Other observations

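An end summit in replicate 2 alone was found at 504 lncRNA genes. Their nearest coding gene was called in both lists in 208 cases (41.3%), against 2431 of 8880 genes (27.4%) with a summit in neither list. A CpG ratio of at least 0.6 was found at 14.9% of their 382 listed starts, against 4.64% of 6596. Summits in replicate 1 alone were found at 42 genes.

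LncRNA genes closer to coding genes could not be members. Of the 2655 with an end within 2000 bp of a coding gene end, 782 (29.5%) had an end summit in both lists, and there the same summit can serve both genes.

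On chromosome 19, where Malat1, Neat1 and Mirt1 lie, 18 of 252 eligible genes (7.14%, exact interval 4.29 to 11.1%) were peak-bearing, and on chromosome 3, 5 of 556 (0.899%, 0.293 to 2.09%). In the replicate 2 list the shares were 14.3% on chromosome 19, 14.3% on 11, 5.40% on 3 and 4.07% on 14, so the order of chromosomes depended on the list.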
